A study of Mus musculus with 27 samples.

Results

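The cancer-associated fibroblast (CAF) regions compared here are the desmin-positive regions of interest (ROIs) with the highest and the lowest transcript levels of 3 MHC class II genes, H2-Ab1, H2-Aa and Cd74, in mouse liver metastases of MC38 colorectal cancer cells. Each ROI was scored by the mean of these genes in log2(value + 1) after the median over all targets of that ROI was subtracted. Without ROI 26, the 5 highest and the 5 lowest ROIs were taken within control and within CMTM6-knockdown metastases, which gave 10 class II high and 10 class II low ROIs of the 27 in the series. The other 6 ranked ROIs lay between the classes. The classes were chosen on measured values, so the levels of the 3 score genes are a description and no finding, and the tests of the other targets ask what varied together with the score across ROIs.

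The study compared the stroma of metastases grown from control MC38 cells with that of metastases grown from MC38 cells in which CMTM6, a membrane protein that stabilizes PD-L1, was silenced. Control metastases came from MC38 cells with a non-targeting shRNA and knockdown metastases from MC38 cells with an shRNA against CMTM6, both injected into the portal vein of C57BL6 mice aged 2 months. The shRNA acted in the injected cancer cells and not in the CAFs, which were those of the host. Probe tags of the GeoMx mouse whole transcriptome panel were read for 18855 targets in the area of each ROI that stained for desmin, in 14 control and 13 knockdown ROIs from 3 mice per group. No label ties an ROI to its mouse, some ROIs of a condition share a mouse, and every p-value over ROIs given here is therefore too small.

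MHC class II molecules carry peptides of extracellular origin to the cell surface, where CD4 T cells read them. An alpha and a beta chain pair in the endoplasmic reticulum with the invariant chain Cd74, cathepsins and legumain degrade that chain in endosomes, and H2-DM exchanges its remnant for peptide while H2-O restrains H2-DM. Transcription of these genes depends on the coactivator Ciita, which is held at their promoters by the RFX complex and NF-Y and is induced by interferon-gamma. Dendritic cells, macrophages and B cells are the usual class II cells, and some CAFs of mouse and human tumours carry class II as well. C57BL/6 mice have the H-2b haplotype with no functional H2-Ea, so their H2-Eb1 chain lacks its usual partner. In a desmin-positive area, more class II transcript per cell and more cells that carry class II cannot be told apart.

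The promoter sequences of 4 class II chain genes are shown. H2-Eb1 and H2-DMb1 passed the test between the classes, whereas H2-Ob and H2-Oa, the chains of H2-O, did not. H2-Ob and H2-Oa lay below the background level defined further down, so their lack of a call is no contrast with H2-Eb1 and H2-DMb1. Each sequence runs from 150 bases before to 10 bases into the RefSeq transcript start on the plus strand of GRCm38.p6, at chr17:34305717-34305876, chr17:34153041-34153200, chr17:34238755-34238914 and chr17:34092229-34092388. Capitals mark GATTGG, the core of the Y box that NF-Y binds, read on both strands (CCAATC on the other), and ACAGATG, a part of an X box, likewise read on both strands (CATCTGT).
H2-Eb1: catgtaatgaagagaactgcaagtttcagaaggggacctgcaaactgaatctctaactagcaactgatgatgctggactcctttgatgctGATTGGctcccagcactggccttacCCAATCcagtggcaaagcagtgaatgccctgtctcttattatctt
H2-DMb1: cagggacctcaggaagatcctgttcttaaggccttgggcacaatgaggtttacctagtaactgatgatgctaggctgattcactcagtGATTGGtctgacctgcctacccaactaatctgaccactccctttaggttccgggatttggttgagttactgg
H2-Ob: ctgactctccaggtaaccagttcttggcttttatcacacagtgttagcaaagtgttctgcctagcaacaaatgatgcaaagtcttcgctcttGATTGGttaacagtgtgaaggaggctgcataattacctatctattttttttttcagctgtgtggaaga
H2-Oa: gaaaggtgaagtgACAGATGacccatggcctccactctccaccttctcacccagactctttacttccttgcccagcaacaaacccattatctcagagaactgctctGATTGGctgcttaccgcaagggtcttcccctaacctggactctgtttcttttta
The Y box core lay 60 bases before the start in H2-Eb1, with its reverse 35 bases before it, and 62, 58 and 44 bases before the start in H2-DMb1, H2-Ob and H2-Oa. The ACAGATG of H2-Oa lay 137 bases before its start. RefSeq promoters of 300 bases were matched by symbol for 15 of the 17 measured pathway genes outside the score. All 7 class II chain genes (H2-Eb1, H2-Eb2, H2-DMa, H2-DMb1, H2-DMb2, H2-Oa and H2-Ob) held the Y box core in at least 1 promoter, as did 3 of the other 8 pathway genes, against 16.1% of 32851 RefSeq promoters. ACAGATG was found in 1 of the 7 and in 5.01% of all promoters. Only this exact string was sought, so a promoter without it is not shown to lack an X box. The match in H2-Oa is likewise not shown to be part of an X box. All matches are of letters only, and they were present in genes that passed the test and in genes that did not.

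In control metastases the score ran from 1.91 to 4.65 with a median of 3.68 over 14 ROIs. The class II high control ROIs 4, 6, 7, 10 and 13 lay between 3.95 and 4.65, and the class II low control ROIs 3, 5, 11, 14 and 15 between 1.91 and 3.07. In knockdown metastases it ran from 4.02 to 5.26 with a median of 4.80 over 12 ROIs. The class II high knockdown ROIs 16, 18, 23, 24 and 25 lay between 5.03 and 5.26, and the class II low knockdown ROIs 17, 20, 22, 27 and 28 between 4.02 and 4.77. On this scale the low class of the knockdown lay within and above the range of the high class of the control. The subtracted ROI medians were 4.85 to 5.26 in the control and 4.19 to 4.43 in the knockdown ROIs of the classes. Without that subtraction the low knockdown ROIs scored 8.22 to 9.02 and the high control ROIs 8.94 to 9.63. Scores are therefore not compared between the conditions. Within a condition, the classes were farther apart in control than in knockdown ROIs. At the edges of the classes, control ROI 7 (3.95) was taken as high and ROI 8 (3.93) was not, and control ROI 15 (3.07) was taken as low and ROI 2 (3.26) was not. In the knockdown, ROI 24 (5.03) was high and ROI 21 (4.82) was not, and ROI 27 (4.77) was low and ROI 19 (4.77) was not.

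**Figure D1:**
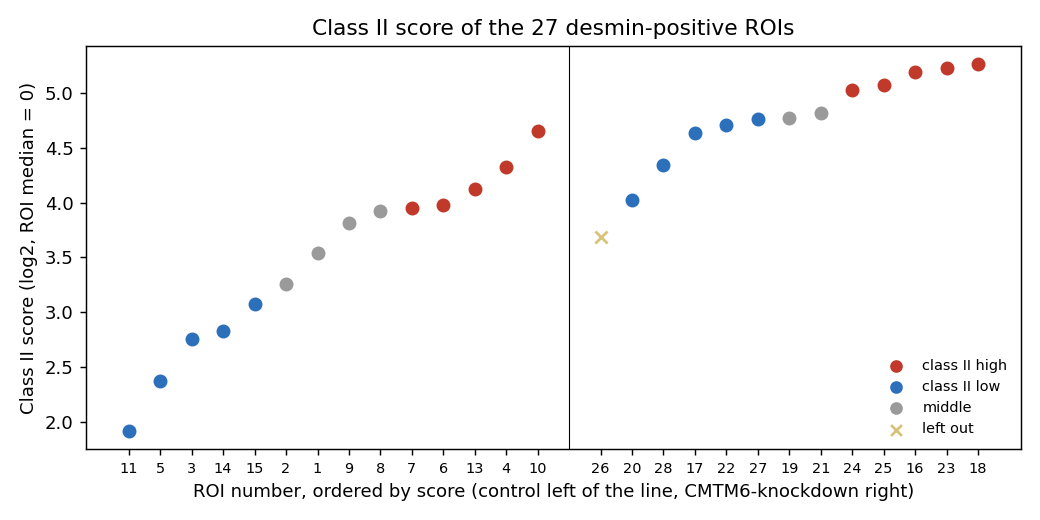
Class II score of each of the 27 ROIs (mean log2 level of H2-Ab1, H2-Aa and Cd74 with the ROI median at 0), ordered by score within control (left of the line) and CMTM6-knockdown (right). Red and blue points are the class II high and low ROIs, grey points the 6 ROIs between them, and the cross is ROI 26, which was left out. Control scores spread from 1.91 to 4.65 and the 12 ranked knockdown scores from 4.02 to 5.26.

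The score genes differed between the classes by construction. Here and below, a level is log2(value + 1) with the ROI median at 0, and a difference is the mean level in class II high minus that in class II low ROIs. H2-Ab1, which encodes the beta chain of H2-A, differed by 1.62 in control and 0.70 in knockdown ROIs. H2-Aa, its alpha chain, differed by 1.65 and 0.72, and Cd74, the invariant chain, by 1.58 and 0.56.

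Depth was compared between the classes. The 20 ROIs held an estimated 406002 to 3269149 reads. Log2 reads were 0.21 higher in the class II high ROIs (two-sided exact permutation within conditions, p = 0.575 over 63504 arrangements, 10 against 10 ROIs). By the same test the difference was 0.48 in control ROIs alone (p = 0.325) and -0.07 in knockdown ROIs alone (p = 0.857). Class II low control ROIs 5 and 14 held 659571 and 672448 reads, below every class II high control ROI (lowest 1019143). The shallowest of the 20 ROIs was ROI 25, a class II high knockdown ROI. ROI 14 had the highest median level over all targets (5.26). The desmin-positive areas carried fibroblast transcripts in every class. Col1a1, a chain of type I collagen, had levels of 7.59 to 9.22 and Pdgfrb, a receptor of stellate cells and pericytes, 2.41 to 3.56 in the 20 ROIs, whereas Lrat, which marks quiescent stellate cells, lay at -1.80 to -0.28. Acta2, which encodes alpha smooth muscle actin, lay at 3.64 to 5.17 in class II high and 3.18 to 4.30 in class II low control ROIs. In the knockdown it lay at 2.32 to 4.98 in the high and 4.37 to 5.56 in the low class. The medians of Lrat lay below background, which was set at -0.51 as the 95th percentile of 1054 targets of olfactory, vomeronasal, taste, keratin-associated and defensin families. Of the 18852 targets tested, 11279 lay above it.

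Between the 10 class II high and the 10 class II low ROIs, 4 of 18852 targets rose (0.0212%) and 1 fell (0.0053%) at a Benjamini-Hochberg adjusted p under 0.05 in limma with condition as covariate. The 4 were H2-Eb1, H2-DMb1, C4b and Plbd1, and the 1 was Mest. At an unadjusted p under 0.05, 623 targets were higher (3.3%) and 449 lower (2.38%). The number rested on single ROIs. It ran from 2 to 19 when each of the 20 ROIs was left out in turn, with 19 without knockdown ROI 17 and 11 without control ROI 13. It was 2 without control ROI 5 or knockdown ROI 20, 23 or 28, and 3 without control ROI 4, 10 or 11 or knockdown ROI 16, 24 or 27. H2-Eb1 and Mest passed in all 20 of these fits.

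H2-Eb1 encodes the beta chain of H2-E. Its levels were 2.41, 2.37, 2.25, 3.07 and 2.37 in class II high control ROIs 4, 6, 7, 10 and 13 and 0.87, 0.80, 0.39, 1.44 and 1.37 in class II low control ROIs 3, 5, 11, 14 and 15. The control classes did not overlap. In the knockdown they were 3.77, 3.75, 3.44, 3.20 and 3.00 in class II high ROIs 16, 18, 23, 24 and 25 and 3.07, 2.31, 2.75, 2.61 and 2.30 in class II low ROIs 17, 20, 22, 27 and 28. Here the classes overlapped only through low ROI 17, which exceeded high ROI 25. The log2 difference was 1.17 ± 0.15 (SE, 10 against 10 ROIs, limma adjusted p = 8.04e-05). The 4 control ROIs between the classes lay at 1.61 to 2.08, between the means of the low (0.98 ± 0.43 SD, n = 5) and the high class (2.50 ± 0.33 SD, n = 5).

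H2-DMb1 encodes a beta chain of H2-DM, which loads peptide onto class II. Its levels were 2.24, 1.70, 1.60, 2.19 and 1.79 in the class II high control ROIs, in the ROI order given for H2-Eb1, and 1.17, 0.80, 0.60, 0.85 and 1.04 in the class II low control ROIs, without overlap. In the knockdown they were 2.23, 2.60, 2.84, 2.92 and 2.60 in the high and 2.63, 1.74, 2.48, 2.29 and 1.47 in the low class, which overlapped. The log2 difference was 0.76 ± 0.14 (SE, limma adjusted p = 0.0284). Its neighbour H2-DMb2, a near copy whose probes may share tags with it, had a difference of 0.25 ± 0.20 (adjusted p = 0.903). Leaving out 1 ROI at a time kept H2-DMb1 past the threshold in 12 of 20 fits. The call was lost without control ROI 4, 5, 10 or 11 or knockdown ROI 20, 23, 24 or 28, with adjusted p up to 0.10.

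**Figure D2:**
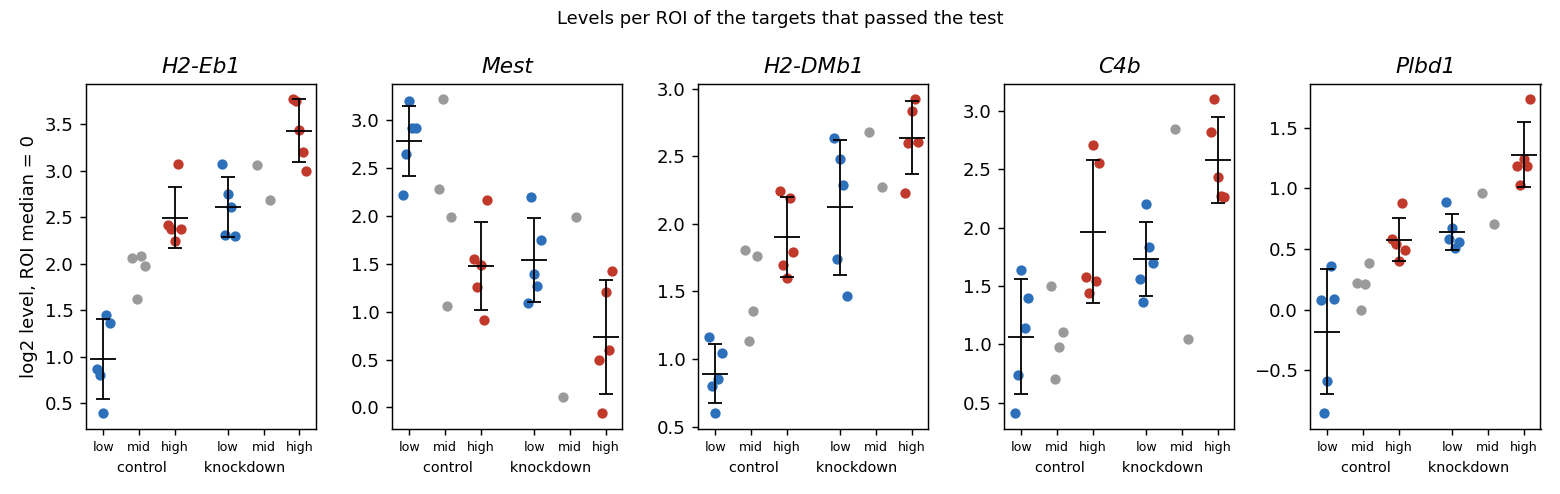
Levels of the 5 targets that passed the test (y axis, log2 with the ROI median at 0) in each control and knockdown ROI of the low, middle and high class. Points are ROIs, and bars give the mean and SD of 5 ROIs. H2-Eb1 and H2-DMb1 do not overlap between the control classes, and Plbd1 does not overlap in either condition.

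The other 15 measured members of the class II pathway did not pass. Ciita, the class II coactivator, had a log2 difference of 0.57 ± 0.18 (unadjusted p = 0.00293, adjusted p = 0.60). H2-DMa, the alpha chain of H2-DM, stood at 0.51 ± 0.15 and Ctss, the cathepsin that trims the invariant chain, at 0.48 ± 0.16. With H2-Eb1 and H2-DMb1, these were 5 of 17 members at an unadjusted p under 0.05, all of them with the higher level in class II high ROIs, against 3.3% of all targets. The RFX subunits showed differences near 0, with 0.03 ± 0.12 for Rfx5, 0.00 ± 0.11 for Rfxank and -0.01 ± 0.12 for Rfxap. H2-Ob and H2-Oa, whose promoters are printed above, stood at 0.11 ± 0.13 and 0.09 ± 0.21 and lay below the background level, as did H2-Eb2. The endosomal reductase Ifi30 was at 0.07 ± 0.10, and Ctsl, another cathepsin, at -0.09 ± 0.13. Over the 17 members, 14 had a difference above 0 and the median was 0.17, against -0.01 over all targets tested. In control ROIs 3 of the 17 members (H2-Eb1, H2-DMb1 and Ctss) had classes that did not overlap with the high class above, where 0.615% of all targets did so, and in knockdown ROIs 0 of 17, where 0.393% of all targets did.

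**Figure D3:**
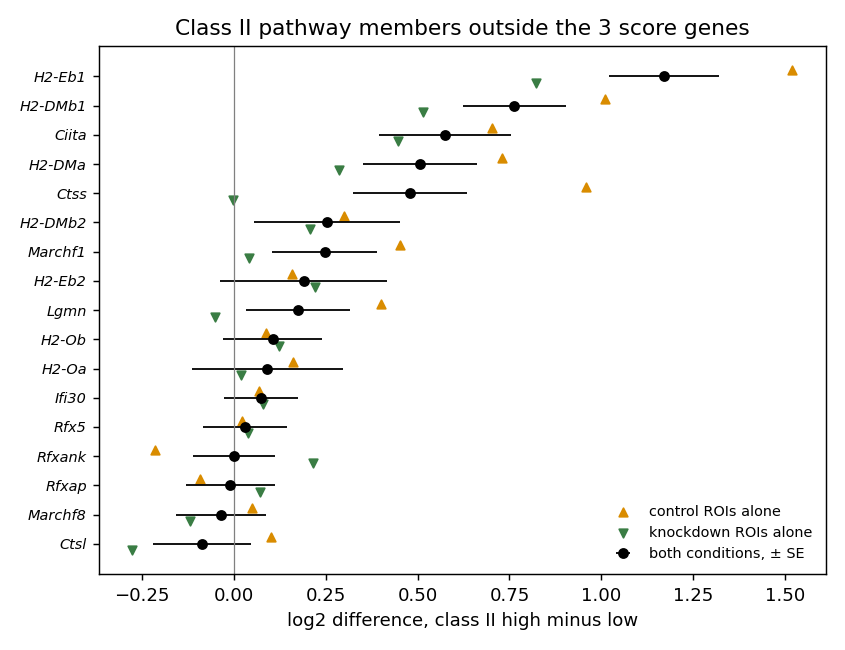
Log2 difference between class II high and low ROIs (x axis) for the 17 class II pathway members outside the score (y axis). Black points give the fit over both conditions with its SE, upward triangles control ROIs alone and downward triangles knockdown ROIs alone. H2-Eb1 (1.17) and H2-DMb1 (0.76) head the list, and the RFX subunits lie near 0.

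C4b encodes complement component C4, and its gene lies in the MHC region at chr17:34728139-34743902 (GRCm38.p6), as H2-DMb1 (chr17:34153191-34160229) and H2-Eb1 (chr17:34305867-34316674) do. C4b levels were 1.58, 1.44, 2.71, 1.55 and 2.55 in the class II high and 0.41, 0.74, 1.64, 1.14 and 1.40 in the class II low control ROIs, which overlapped through low ROI 11. In the knockdown they were 2.82, 3.10, 2.44, 2.27 and 2.27 against 1.56, 1.37, 2.20, 1.84 and 1.70, without overlap. C4b rose by 0.87 ± 0.16 on the log2 scale (limma adjusted p = 0.0328), and passed in 11 of the 20 fits without 1 ROI. It was lost, with adjusted p up to 0.10, without control ROI 3, 5 or 7 or knockdown ROI 16, 18, 20, 23, 27 or 28. Of 16 complement genes, 6 had an unadjusted p under 0.05, all with the higher level in class II high ROIs, against 3.3% of all targets. The others were C2 (0.64 ± 0.16), C3 (1.10 ± 0.30), the central complement component, Cfb (0.61 ± 0.20), Cd55 (0.42 ± 0.20) and C1ra (0.30 ± 0.14), with adjusted p from 0.264 to 0.866.

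Plbd1 encodes a phospholipase B-like protein of lysosomes and granules of myeloid cells. Its levels were 0.58, 0.54, 0.40, 0.88 and 0.49 in the class II high and 0.08, -0.85, -0.59, 0.36 and 0.09 in the class II low control ROIs. In the knockdown they were 1.18, 1.03, 1.25, 1.19 and 1.74 against 0.88, 0.58, 0.67, 0.51 and 0.56. Plbd1 was the 1 of 18852 targets (0.0053%) whose classes did not overlap, in the same direction, in both conditions. With the high class above, 0.615% of all targets did so in control and 0.393% in knockdown ROIs. That 1 target did so in both is therefore no added support for Plbd1. In control ROIs the gap was narrow, from 0.36 to 0.40. It rose by 0.70 ± 0.13 on the log2 scale (limma adjusted p = 0.0356) and passed in 7 of the 20 fits without 1 ROI, those without control ROI 3, 7, 13, 14 or 15 or knockdown ROI 17 or 18. In the other fits its adjusted p reached 0.14.

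Mest, an imprinted gene of fetal and mesenchymal tissue that encodes a hydrolase-like protein, moved the other way. Its levels were 1.55, 1.26, 1.49, 0.91 and 2.17 in the class II high and 2.22, 2.65, 3.20, 2.92 and 2.92 in the class II low control ROIs, which did not overlap. In the knockdown they were 0.50, -0.06, 1.21, 0.60 and 1.43 against 1.09, 2.20, 1.39, 1.27 and 1.75, with overlap. Mest fell by 1.06 on the log2 scale (SE 0.17, limma adjusted p = 0.00636). The ROIs between the classes ran from 1.06 to 3.22 in control and stood at 0.11 and 1.99 in the knockdown. After Mest, the 5 lower targets with the smallest p did not pass. Igfbp3, which binds insulin-like growth factors, stood at -0.91 ± 0.20 (adjusted p = 0.115), Heyl, a Notch target of mural cells, at -0.69 ± 0.16 (adjusted p = 0.18), Dchs1, a protocadherin, at -0.55 ± 0.13 (adjusted p = 0.216), Klk8, a serine protease, at -0.59 ± 0.14 (adjusted p = 0.237) and Nos3, the endothelial nitric oxide synthase, at -0.53 ± 0.14 (adjusted p = 0.368).

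MHC class I genes and immunoproteasome subunits, which serve the presentation of cytosolic peptides and are also induced by interferon-gamma, had differences above 0 in all 19 measured members. None of the 19 passed at the adjusted p under 0.05, and 15 had an unadjusted p under 0.05, against 3.3% of all targets with the higher level in class II high ROIs. The list median was 0.40 over both conditions, 0.61 in control and 0.18 in knockdown ROIs, beside -0.01, 0.02 and -0.05 over all targets. H2-K1, a classical class I heavy chain, had levels of 6.25 to 6.89 in class II high and 4.94 to 6.12 in class II low control ROIs, and of 6.41 to 6.90 and 5.65 to 6.83 in the knockdown. Its difference was 0.72 ± 0.15 (adjusted p = 0.102). H2-Q6 stood at 0.72 ± 0.15, H2-D1 at 0.65 ± 0.14 and Psmb9, an immunoproteasome subunit, at 0.55 ± 0.15, with adjusted p of 0.102, 0.115 and 0.458. Class I heavy chain genes are close copies, so their probes may share tags. In control ROIs the classes did not overlap for 6 of the 19 members (B2m, H2-K1, H2-T23, Tapbpl, Psmb8 and Erap1), against 0.615% of all targets, and in knockdown ROIs for 0, against 0.393%.

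Interferon-gamma response genes followed the same order, without a member past the threshold. Of 23 measured, 13 had an unadjusted p under 0.05 with the higher level in class II high ROIs, against 3.3% of all targets, and the median difference was 0.36, with 0.69 in control and 0.06 in knockdown ROIs. Cxcl9, a chemokine for T cells, stood at 0.87 ± 0.26 (adjusted p = 0.561) and the GTPase Igtp at 0.59 ± 0.20 (adjusted p = 0.649). The type I interferon list split by condition. All 20 members had differences above 0 in control ROIs (median 0.69), whereas 5 of 20 did in knockdown ROIs (median -0.14).

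Leukocyte markers lay on the same side in control ROIs but not throughout in the knockdown. The pan-leukocyte median was 0.41 in control and 0.04 in knockdown ROIs. Of 20 pan-leukocyte genes, 8 had an unadjusted p under 0.05, all higher in class II high ROIs, against 3.3% of all targets. Their summed level, in units of each ROI's median value, was 60.6 to 94.1 in class II high against 53.2 to 75.4 in class II low control ROIs, and 78.3 to 106.6 against 69.9 to 123.3 in the knockdown. The macrophage and Kupffer cell list had a median of 0.45 in control and -0.17 in knockdown ROIs, with 3 of 28 members higher at an unadjusted p under 0.05, beside the same 3.3%, and its summed level was 106.1 to 186.5 against 63.2 to 110.3 in control and 106.2 to 168.8 against 115.2 to 235.4 in knockdown ROIs. The dendritic cell list had medians of 0.23 and 0.34 and 5 of 16 members higher at an unadjusted p under 0.05, beside 3.3% of all targets. Among them, Clec10a, a lectin of conventional dendritic cells and macrophages, stood at 0.57 ± 0.14 (adjusted p = 0.236), and Itgax, which encodes CD11c, at 0.67 ± 0.21. Of the 16, 14 had differences above 0 and 9 lay above background, Clec10a narrowly with a mean level of -0.42. Zbtb46, a planned dendritic cell marker, was lower in the high class. Its mean levels were -0.96 against -0.43 in control and -0.89 against -0.80 in knockdown ROIs. Summed dendritic cell levels were 27.3 to 33.2 against 23.7 to 28.2 in control and 26.1 to 33.2 against 23.2 to 32.4 in knockdown ROIs. The B and plasma cell list had medians of 0.25 and 0.15, and 3 of 14 members were higher at an unadjusted p under 0.05, beside 3.3% of all targets. Only 4 of the 14 lay above background. Of the 3 higher members, Mzb1 lay below background. Igha, another, had class II high medians of -0.67 in control and -0.38 in knockdown ROIs, with highest values of 3.86 and 4.26. The markers Flt3 and Xcr1 of dendritic cells, Cd79a and Ms4a1 of B cells and Clec4f of Kupffer cells had median levels of -1.43 to -0.17 in the 4 groups of 5 ROIs, and no deposited value was 0. The macrophage markers C1qa, Csf1r and Adgre1 had higher medians, of 3.58 to 4.08, 1.91 to 2.63 and 1.61 to 1.87. For Itgax they were -0.38 to 0.58. Mean levels of C1qa, Csf1r and Adgre1 were higher in class II high than in class II low control ROIs. In the knockdown they were lower, as for Csf1r with 2.43 against 2.64. The part of these cells in the class II difference was not tested.

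T and NK cell genes had differences above 0 in all 26 measured members over both conditions, with a median of 0.23 and 6 of 26 at an unadjusted p under 0.05, against 3.3% of all targets. Ccl5, a chemokine of cytotoxic lymphocytes, stood at 0.64 ± 0.19 (adjusted p = 0.504) and Klrk1, the receptor NKG2D, at 0.58 ± 0.17 (adjusted p = 0.524). Here the knockdown median (0.42) exceeded the control median (0.10). Summed levels were 23.4 to 32.3 against 17.2 to 28.4 in control and 30.1 to 47.8 against 20.2 to 34.1 in knockdown ROIs. Il1b, an inflammatory cytokine of monocytes and neutrophils, stood at 0.81 ± 0.17 (adjusted p = 0.102) and Slamf8, a myeloid surface receptor, at 0.72 ± 0.16 (adjusted p = 0.115).

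Hepatocyte transcripts lay on that side as well. All 18 measured hepatocyte genes had differences above 0, with a median of 0.48, and 8 of 18 had an unadjusted p under 0.05, against 3.3% of all targets. Their summed level was 19.5 to 32.6 in class II high and 11.3 to 18.5 in class II low control ROIs, which did not overlap, and 18.6 to 86.5 against 21.5 to 45.3 in the knockdown. Alb, the albumin gene, lay at 0.50 to 2.23 in class II high and -0.26 to 0.23 in class II low control ROIs. In the knockdown it lay at -0.79 to 4.23 in the high and 1.00 to 2.90 in the low class, with a difference of 0.02 ± 0.54. Apoa1, which encodes an apolipoprotein of HDL, had a knockdown difference of -0.07 ± 0.49. The part of liver tissue at the edge of the metastases in these differences was not tested. Endothelial genes lay mostly on the other side, with a median of -0.19 and 7 of 18 differences above 0. Of 18, 7 were lower at an unadjusted p under 0.05, against 2.38% of all targets, among them Pecam1 (-0.44 ± 0.12) and the vascular endothelial cadherin Cdh5 (-0.44 ± 0.16), and 1, Fcgr2b of liver sinusoids and myeloid cells, was higher (0.63 ± 0.15). None of these passed, with adjusted p of 0.504, 0.73 and 0.193. Stab2, a planned endothelial marker, had mean levels of -0.46 in class II high and -0.34 in class II low control ROIs. In the knockdown its means went the other way, with -0.20 in the high and -0.80 in the low class.

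**Figure D4:**
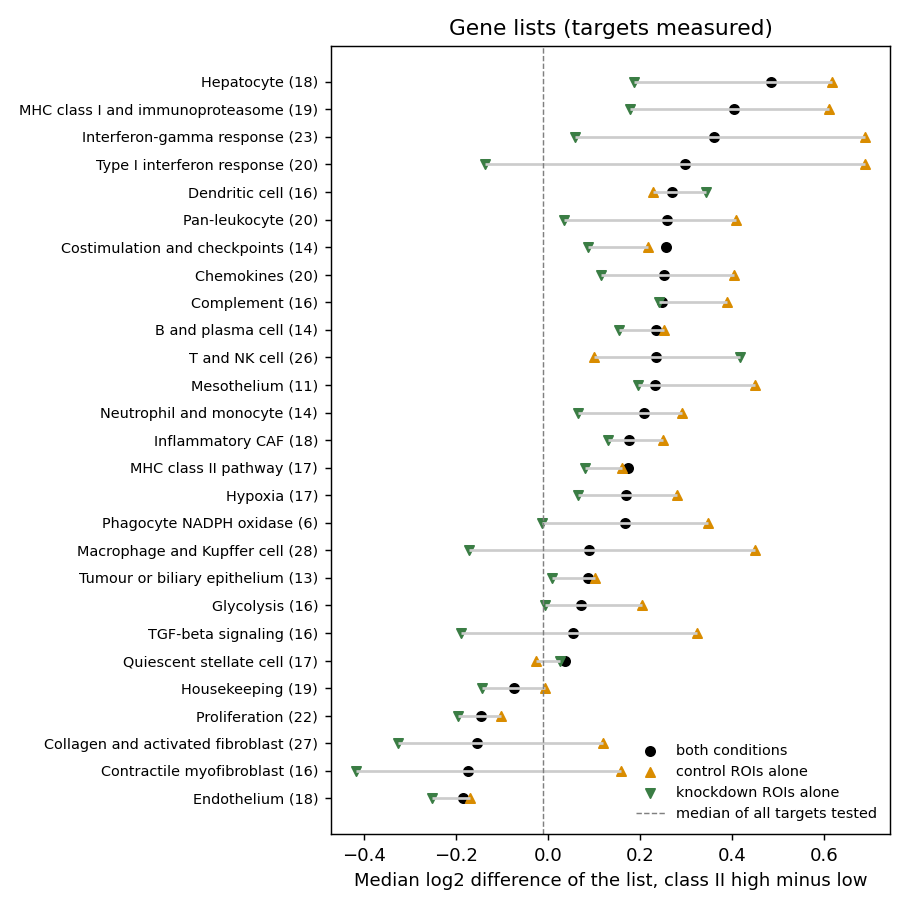
Median log2 difference between class II high and low ROIs (x axis) of 27 gene lists (y axis, number of measured targets in brackets). Black points give both conditions, upward triangles control ROIs alone, downward triangles knockdown ROIs alone, and the dashed line the median of all targets tested (-0.01). The type I interferon list has medians of 0.69 in control and -0.14 in knockdown ROIs.

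The contractile and collagen lists lay on opposite sides of 0 in the 2 conditions. Contractile myofibroblast genes had a median of 0.16 in control ROIs, with 14 of 16 above 0, and of -0.42 in knockdown ROIs, with 1 of 16 above 0. None had an unadjusted p under 0.05 in the fit over both conditions. In knockdown ROIs the classes did not overlap, with the high class below, for 3 of the 16 (Actg2, Myl9 and Flna), where 0.424% of all targets did so, and in control ROIs for 0, where 0.202% did. Actg2, a smooth muscle actin, had levels of 0.49 to 1.90 in class II high and 0.15 to 1.46 in class II low control ROIs, and of -0.90 to 0.88 against 1.02 to 2.68 in the knockdown. Its interaction, the knockdown difference minus the control difference, was -1.83 ± 0.42 (unadjusted p = 0.00013, limma adjusted p = 0.813). Collagen and activated fibroblast genes had medians of 0.12 and -0.33, with 18 and 2 of 27 above 0. Over both conditions, 4 of the 27 fell at an unadjusted p below 0.05, beside 2.38% of all targets, and 2 rose, beside 3.3%. Among the 4 were Col11a1, a fibrillar collagen chain, at -0.58 ± 0.19 and Pdgfrb at -0.38 ± 0.12. Both had an adjusted p of 0.612. Unlike the list median, these genes were below 0 in control ROIs too, with -0.36 ± 0.20 for Col11a1 and -0.34 ± 0.19 for Pdgfrb. Proliferation genes had 0 of 22 differences above 0, with a median of -0.15 and 0 at an unadjusted p under 0.05. Des itself was used to choose the area and is no finding.

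**Figure D5:**
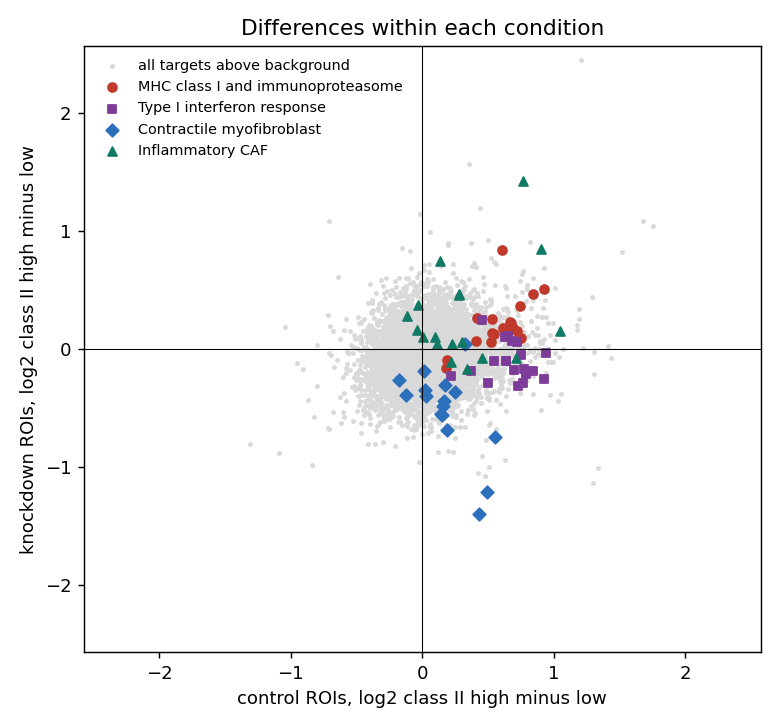
Log2 difference between class II high and low ROIs in control (x axis) and in knockdown ROIs (y axis). Grey points are the 11279 targets above background, and coloured points are 4 gene lists. Class I and immunoproteasome genes lie to the right of 0 in control (median 0.61) with smaller knockdown differences (median 0.18), and contractile genes lie mostly below 0 in the knockdown (median -0.42).

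Taken alone, control ROIs gave 7 higher targets (0.0371%) and 1 lower target (0.0053%) at a limma adjusted p under 0.05 (5 against 5 ROIs). The 7 were H2-Eb1 (1.52 ± 0.20), Apoa1 (1.43 ± 0.22), Alb (1.41 ± 0.27), Fcgr4 (1.31 ± 0.23), Slfn1 (1.30 ± 0.23), Slamf8 (1.19 ± 0.20) and H2-DMb1 (1.01 ± 0.17), and the 1 was Mest (-1.31 ± 0.21). Apoa1 and Alb are hepatocyte genes, and Fcgr4 and Slamf8 encode receptors of myeloid cells. Knockdown ROIs gave 2 targets (0.0106%), both higher: C3 with 1.43 ± 0.20 (adjusted p = 0.00359) and Hp, the acute-phase protein haptoglobin, with 1.57 ± 0.23 (adjusted p = 0.00475). C3 levels were 5.29, 4.87, 4.81, 4.58 and 4.15 in the class II high and 3.09, 2.83, 4.05, 3.36 and 3.22 in the class II low knockdown ROIs, without overlap. In control ROIs C3 overlapped, with 2.45 to 4.96 against 1.01 to 4.04. Saa3, an acute-phase protein also made by mesothelium and fibroblasts, had the largest knockdown difference of the genes named here, 2.45 ± 0.54 (adjusted p = 0.357), and stood at 1.21 ± 0.46 in control ROIs. Fcgr4 and Slfn1 were named after their values were seen. Apoa1 and Alb were planned hepatocyte markers, and are named singly here because they passed.

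Whether these differences depended on the condition was tested by the interaction of class and condition. At a limma adjusted p under 0.05 it was passed by 0 of 18852 targets (0%), and at an unadjusted p under 0.05 by 877 (4.65%). A target that passed in 1 condition alone is therefore not shown to differ between the conditions. For H2-Eb1 the interaction was -0.70 ± 0.28 (adjusted p = 0.973), for Ctss -0.96 ± 0.27 (adjusted p = 0.832) and for C4b it was -0.05.

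The score was also used as a continuous covariate over all 26 ranked ROIs, with condition as the other term. In limma 76 targets rose with the score (0.403%) and 2 fell (0.0106%) at an adjusted p under 0.05. Of the 5 targets that passed between the classes, H2-Eb1, H2-DMb1, Plbd1 and Mest passed here too, and C4b did not. The 76 included 11 of the 19 class I and immunoproteasome genes, 8 of the 23 interferon-gamma genes, 5 of the 17 class II genes, 5 of the 20 pan-leukocyte genes and 34 targets of no list, and no contractile, collagen, T and NK cell or type I interferon gene. H2-Eb1 rose by 0.96 ± 0.07 per unit of score, H2-K1 by 0.66 ± 0.10, H2-DMa by 0.50 ± 0.09, Ctss by 0.49 ± 0.10 and Ciita by 0.48 ± 0.12. Among targets of no list, Cyp4f18 (0.58 ± 0.10) and Pld4 (0.48 ± 0.09) are expressed in myeloid cells, and both were named after their values were seen. Mest fell by 0.87 per unit of score, and Klk8 by 0.47. Scores spread more in control (SD 0.79) than in knockdown ROIs (SD 0.37).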

How the data were processed

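Desmin-positive segments of 27 ROIs were profiled by the study with the GeoMx mouse whole transcriptome panel. The authors turned sequenced probe tags into counts with the GeoMx analysis software and deposited signal values for 18855 targets, scaled within each ROI. The kind of scaling, the software version and any filter are not given in sources used here. The 75th percentile of the deposited values was nearly constant within a condition and differed between the conditions. It was 70.3 to 72.6 in control ROIs and 43.9 to 45.7 in the 12 ranked knockdown ROIs, so deposited levels are not on 1 scale across conditions. Estimated reads per ROI came from the step between neighbouring values. The 3 score genes were left out, and log2(value + 1), with the ROI median over all targets subtracted, was fitted over the other 18852 targets with limma 3.58.1 (R 4.3.3, trend, two-sided) with class and condition as terms. Benjamini-Hochberg adjusted p under 0.05 was the threshold, adjusted over all of these targets. Differences are on the log2(value + 1) scale, which understates the change of low targets. Reads per ROI were compared by exact permutation within conditions (Python 3.11.15). Genes named were all targets past the threshold, the next 5 by p in each direction among targets above background, every member of the class II list and the 2 members with the smallest p of each other list. Some of these last members, and some lists, are not described in the text. Other genes are mentioned with their list or marked. ROIs, gene lists and members were chosen with earlier results of these data known. Symbols were matched to RefSeq (GRCm38.p6). Alternatives were the pseudocount, scaling, filter, covariates, weights, class size, score and leaving out each ROI. The fit with the score as a continuous covariate was one of them.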

Additional observations from a re-analysis of the deposited data

Results flagged for a closer look

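Of 100 groups of 5 ROIs tested (24 genes and the reads per ROI, in 4 groups each), 9 held an ROI far from the others by Dixon's criterion, which flags about 1 group in 20 by chance. H2-Eb1 was 3.07 in class II high control ROI 10 against 2.25 to 2.41 in the others. Hp was 3.42 in class II high control ROI 13 against 1.31 to 1.89. Marchf1, a ubiquitin ligase that removes class II from the cell surface, was 0.786 in class II high control ROI 13 against 0.129 to 0.187, and 0.965 in class II high knockdown ROI 25 against 0.237 to 0.413. Its relative Marchf8 was 1.14 in class II high control ROI 7 against 1.55 to 1.72, and 0.895 in class II low control ROI 14 against 1.57 to 1.76. Rfx5 was 0.358 in class II high control ROI 13 against 0.774 to 0.911. Slamf8 was 1.86 in class II low knockdown ROI 17 against 1.02 to 1.14, and Slfn1 was 0.361 in class II high knockdown ROI 24 against 0.828 to 0.990. ROI 13 holds 3 of the 9 values, and without it 11 targets passed the test between the classes. Without ROI 17, which also had the highest H2-Eb1 level of the class II low knockdown ROIs, 19 passed.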

How the results depend on the processing

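The test between the classes gave 5 targets (4 higher, 1 lower). The count was 5 to 7 with pseudocounts of 0.1 and 5, targets above background alone, values as deposited, the 75th percentile subtracted, total reads as covariate and a score from H2-Aa alone. It was 0 without the condition covariate (0 higher, 0 lower) and 0 without variance moderation (0 higher, 0 lower), and 33 with array weights (15 higher, 18 lower). It was 8 in control ROIs alone (7 higher), 2 in knockdown ROIs alone (2 higher, 0 lower), 2 with ROI 26 kept (1 higher), 1 with 4 ROIs per class (1 higher, 0 lower), 1 with all ranked ROIs split at the middle (1 higher, 0 lower), 8 with a score from values without the ROI median (2 lower), 78 with the continuous score (76 higher, 2 lower) and 84 when a target had to reach a fold of 1.5 with p under 0.05 before adjustment (67 higher, 17 lower). Of the alternatives chosen after seeing the data, leaving out ROI 14 and ROI 25 gave 8 (4 lower), a score from H2-Ab1 alone 1 (1 higher, 0 lower) and from Cd74 alone 1 (1 higher, 0 lower). Leaving out each ROI gave 2 to 19 targets, 1 to 16 higher and 1 to 3 lower. The interaction count was 0 in all of its alternatives. The causes were not tested. Over 20 alternatives other than leaving out 1 ROI, H2-Eb1 had differences of 0.82 to 1.52 and passed in 17, and Mest had -1.31 to -0.80 and passed in 13, and none of the 5 targets changed direction.

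Of 76 named genes, 64 kept their direction in all alternatives and 12 did not, none of them past the threshold between the classes. Rfxank turned to -0.0024 with a pseudocount of 5, -0.018 with array weights, -0.21 in control ROIs alone, -0.083 with ROI 26 kept, -0.057 with 4 ROIs per class, -0.0078 with all ranked ROIs split at the middle, -0.035 with the score without the ROI median, -0.083 with the continuous score and -0.021 with H2-Ab1 alone. Rfxap turned to 0.023 as deposited, 0.023 with the 75th percentile, 0.073 in knockdown ROIs alone and 0.11 with ROI 26 kept. Marchf8 turned to 0.050 in control ROIs alone, 0.086 with ROI 26 kept, 0.046 with 4 ROIs per class and 0.017 with Cd74 alone. In control ROIs alone Ctsl was 0.10, Actg2 0.43 and Tpm2 0.15. In knockdown ROIs alone Ctss was -0.00084, Lgmn -0.052 and Ltbp1 -0.023, and the difference in log2 reads was -0.070. With 4 ROIs per class H2-Oa was -0.093 and Rfx5 -0.00012, and Slc2a1 was -0.039 with Cd74 alone. When 1 ROI was left out, the difference ran from -0.036 to 0.047 for Rfxank, from -0.057 to 0.046 for Rfxap, from -0.11 to 0.010 for Marchf8, from -0.078 to 0.19 for H2-Oa and from -0.011 to 0.081 for Rfx5. No paired analysis was possible because no ROI number occurs in both conditions. The planned count models (edgeR and DESeq2) were not run, since in 13 of 27 ROIs the smallest values lay several steps above 0 and the columns were not accepted as whole reads. With 3 mice per group and no label that ties ROIs to mice, the mouse could not be a term.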
